A study of Mus musculus with 8 samples.

Results

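Transcripts of the tumour necrosis factor (TNF) receptors and of the proteins that act next to them were measured on microarrays in 3T3-L1 adipocytes made insulin resistant in 3 ways. The set held 10 genes chosen by symbol, of which 9 were matched to a probe set through the annotation used and 1, Ripk1, was not matched and was not analysed here. These 9 were among 18193 genes tested. Each gene was represented by the probe set with a single gene symbol that had the highest mean over the 8 arrays, and its other probe sets served as a check.

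3T3-L1 is a mouse fibroblast line that can be differentiated into fat cells, and the labels name its preadipocyte stage as the tissue and differentiated adipocytes as the cells treated. The chronic insulin model (CI, 2 arrays) was exposed to insulin, the TNF model (3 arrays) to TNF and the Dex model (3 arrays) to the synthetic glucocorticoid dexamethasone. All 8 samples also received MnTBAP, an antioxidant that enters cells, for the last 6 h, and neither cells without MnTBAP nor untreated cells were analysed here. A difference is therefore always one model relative to another, and a lower value in TNF or Dex than in CI is the same measurement as a higher value in CI.

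TNF is an inflammatory cytokine that signals through a pair of cell-surface receptors. The receptor encoded by Tnfrsf1a carries a death domain, through which it gathers Tradd, Ripk1 and Traf2 into a complex that activates NF-kB and MAP kinases, and from which a second complex with Fadd and Casp8 can form to start apoptosis unless Cflar holds it back. The receptor encoded by Tnfrsf1b lacks a death domain and binds Traf2 directly. In adipocytes TNF is known for lowering insulin-stimulated glucose uptake and stimulating lipolysis, whereas glucocorticoids are known for repressing many inflammatory genes.

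Intensities were deposited on a linear scale and are given here as log2, so that a difference of 1 is a 2-fold change. Values are means ± SD, and differences carry the standard error (SE) or the 95% interval of the fit. A gene was called where limma's two-sided test gave a Benjamini-Hochberg adjusted p under 0.05 over all 18193 genes and the difference exceeded 0.5. The median intensity of an array was 124.7 to 131. Pearson's r between arrays, over all probe sets except controls, was 0.9958 to 0.9978 within a model and 0.9856 to 0.991 between models. The labels do not say that arrays of a model came from separate cultures, so the p-values rest on array-to-array spread that may be only technical. The treatments were visible in genes known to respond to them. Saa3, an acute phase gene, was 13.98 to 14.18 in the 3 TNF arrays and 8.81 to 9.15 in the other 5, and Fkbp5, a glucocorticoid receptor target, was 12.99 to 13.14 in Dex and 10.10 to 10.49 in the other models. Of 8 measured adipocyte markers, Adipoq, Fabp4 and Lpl lay between 14.17 and 14.45 in every array, close to the highest intensities of the arrays. The other 5 (62.5% of the 8, beside 8.22% of all genes) were called lower in TNF than in CI, by 0.52 (Pparg) to 0.95 (Retn). Of these, 3 (Lep, Slc2a4 and Pparg, 37.5% of the 8, beside 9% of all genes) were also called lower in Dex than in CI. Lep was dim, and its CI arrays lay apart, at 7.17 and 6.26, against 5.69 to 5.87 in the TNF and Dex arrays. The marker levels thus differed between the models compared.

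Of the 9 genes, 5 were called in at least one comparison (the receptor Tnfrsf1b, the adaptor Traf2, the protease Casp8 and the TNF-inducible Tnfaip2 and Tnfaip6) and 4 in none (the receptor Tnfrsf1a, the adaptors Tradd and Fadd, and Cflar). The difference of largest size was that of Tnfaip6, which was lower in Dex than in both other models. In TNF against CI 2 were called (22.2%), both higher (Tnfrsf1b and Tnfaip2), beside 8.22% of all genes called in either direction, 3% higher and 5.23% lower. In Dex against CI 4 were called (44.4%), Tnfrsf1b higher and Tnfaip6, Casp8 and Traf2 lower, beside 9% of all genes in either direction, 3.33% higher and 5.67% lower. In TNF against Dex only Tnfaip6 was called (11.1%), higher in TNF, beside 7.3% of all genes, 4.14% higher and 3.16% lower. The arrays of the models compared did not overlap for 5, 6 and 5 of the 9 genes in these comparisons, against 53%, 48% and 35.9% of all genes. The median difference of the 9 genes was −0.15, −0.08 and 0.13 in these comparisons, and that of all genes 0.03, 0.02 and 0.01. The 3 comparisons share their arrays and are not independent of each other. Because whole cultures were measured, fewer cells of a type and less RNA per cell cannot be told apart.

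**Figure D1:**
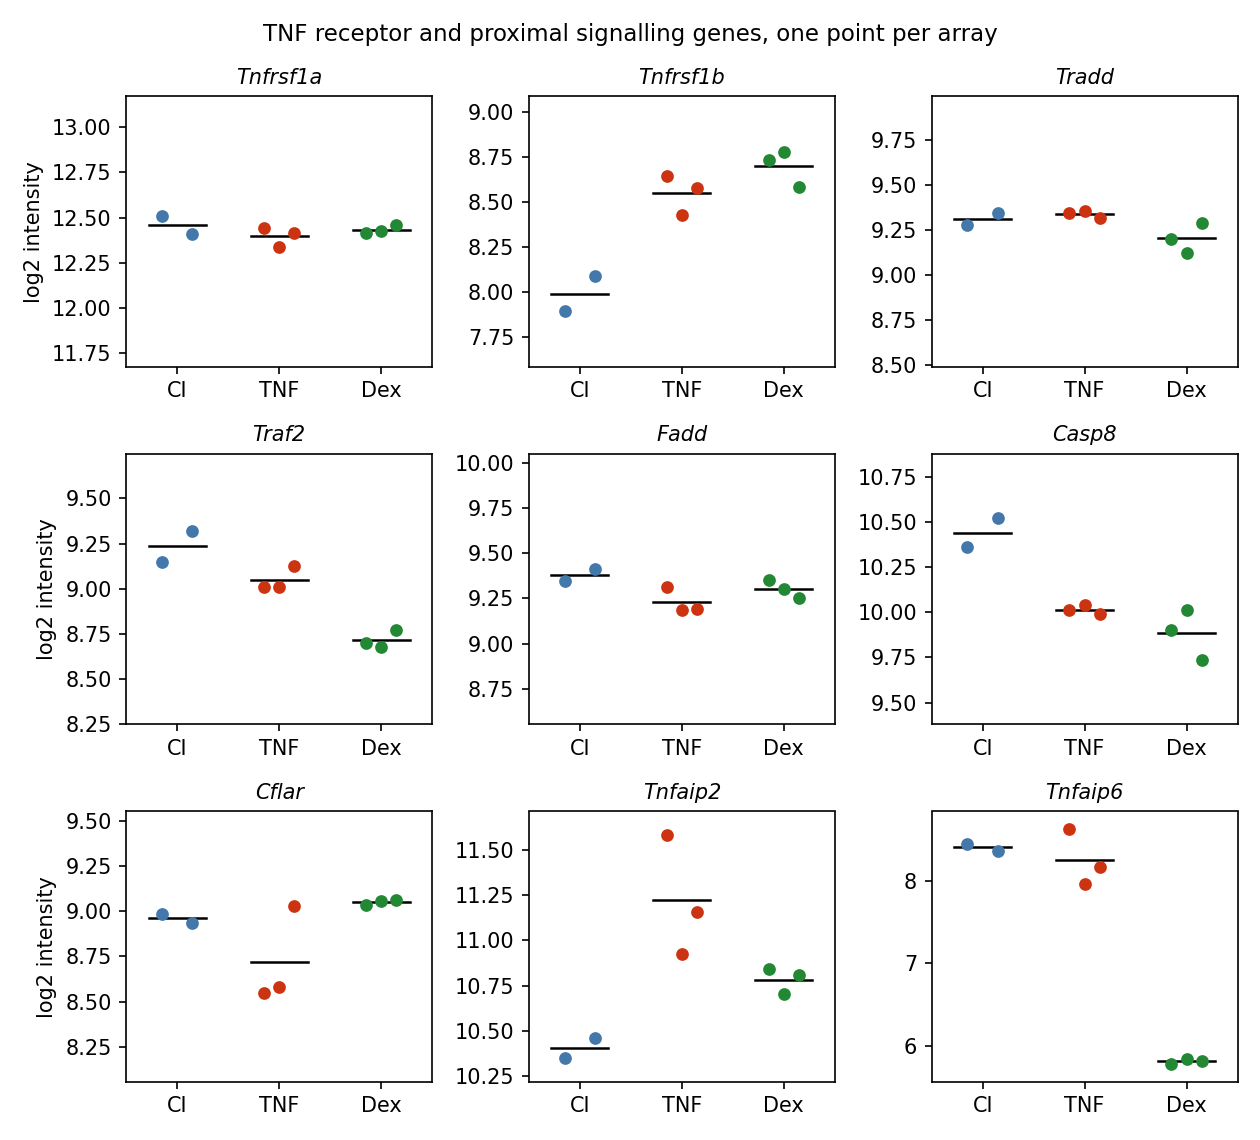
Log2 intensity (y axis) of the 9 measured genes in each array of the CI, TNF and Dex models (x axis), with 1 point per array and a line at the mean of the model. The Tnfaip6 axis spans more than the others, and its 3 Dex arrays sit near 5.8 while all other arrays are at 7.96 or above.

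**Figure D2:**
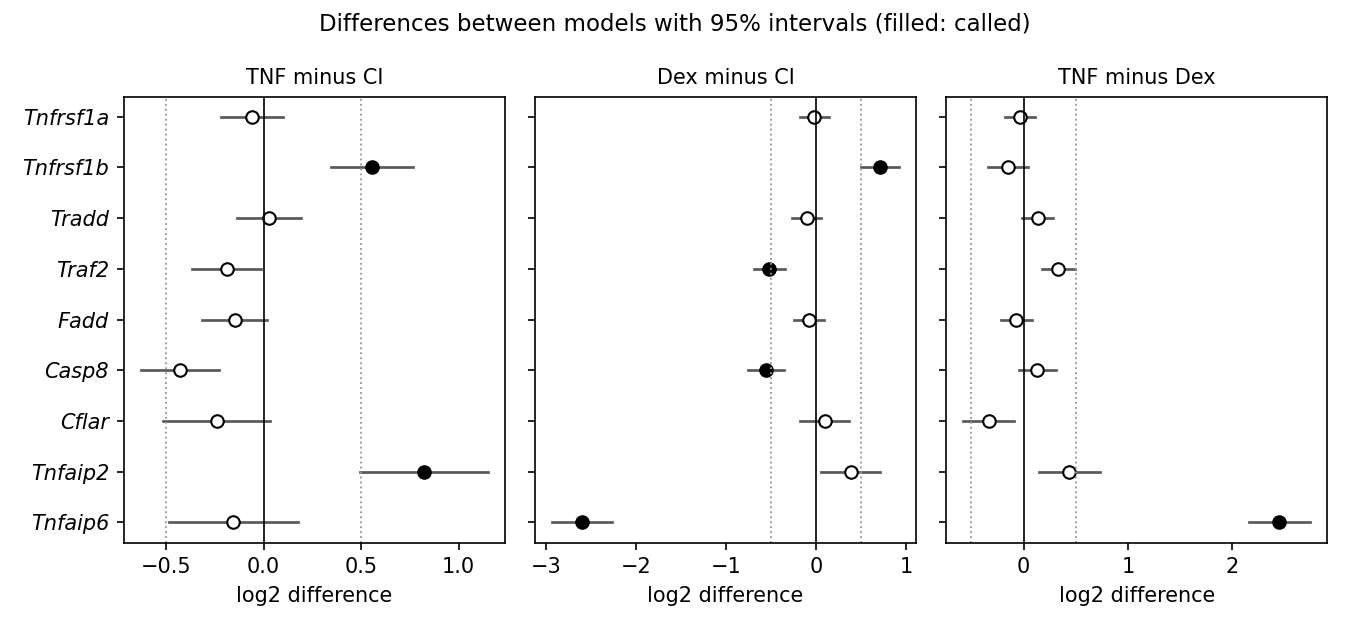
Log2 difference (x axis) between models for each of the 9 genes (y axis), with the 95% interval of the fit as a bar, a filled point where the gene was called and dotted lines at −0.5 and 0.5. The x axes differ between panels, and Tnfaip6 stands furthest from 0 in both comparisons that involve Dex.

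The stretch of 250 bases before the start of transcription is shown for the 3 genes with the largest called differences, Tnfaip6, Tnfaip2 and Tnfrsf1b, since TNF and dexamethasone both act on transcription, through NF-kB and AP-1 and through the glucocorticoid receptor. The sequences are from RefSeq (GRCm38.p6) and cover chr2:52037863-52038112 on the plus strand for Tnfaip6, chr12:111442411-111442660 on the plus strand for Tnfaip2 and chr4:145246871-145247120 on the minus strand for Tnfrsf1b, each written 5′ to 3′ along its gene with a match to a searched motif in capitals.
Tnfaip6: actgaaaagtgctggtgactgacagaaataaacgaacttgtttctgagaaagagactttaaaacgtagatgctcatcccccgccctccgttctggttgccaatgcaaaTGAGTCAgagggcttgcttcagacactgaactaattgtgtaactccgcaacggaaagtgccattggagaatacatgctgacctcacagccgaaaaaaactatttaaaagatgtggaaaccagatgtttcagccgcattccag
Tnfaip2: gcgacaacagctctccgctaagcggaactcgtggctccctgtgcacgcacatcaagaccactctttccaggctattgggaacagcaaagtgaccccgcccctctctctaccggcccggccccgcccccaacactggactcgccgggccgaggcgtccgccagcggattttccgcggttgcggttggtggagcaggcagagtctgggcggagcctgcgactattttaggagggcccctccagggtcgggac
Tnfrsf1b: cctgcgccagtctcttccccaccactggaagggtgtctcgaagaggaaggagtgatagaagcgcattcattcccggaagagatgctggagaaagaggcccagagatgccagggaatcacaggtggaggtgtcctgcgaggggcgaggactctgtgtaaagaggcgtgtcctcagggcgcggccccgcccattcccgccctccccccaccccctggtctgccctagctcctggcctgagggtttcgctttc
Of the 10 genes 9 had such an entry, the exception being Tradd. Both strands were searched for the kappa B consensus, which 3.9% of all 32851 promoter windows of this length held, for AGAACA, one arm of a glucocorticoid receptor site, held by 16.1%, and for the palindrome that contains it, held by 0.00913%. The AP-1 motif TGANTCA, added after the Tnfaip6 sequence had been seen, was held by 6.75%. The capitals in Tnfaip6 are its AP-1 match, TGAGTCA, at −142 to −136 from the start. Fadd had AGAACA at −167 to −162 on the minus strand. No other match lay in these windows of the 9 genes, which says only that the letters are not in them.

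The receptors differed in their behaviour. Tnfrsf1a was 12.51 and 12.41 in the CI arrays, 12.44, 12.34 and 12.42 in the TNF arrays, and 12.41, 12.43 and 12.46 in Dex. The models overlapped, with means of 12.46 ± 0.07 (SD, n = 2), 12.40 ± 0.06 (n = 3) and 12.43 ± 0.02 (n = 3). The interval of the difference ran from −0.22 to 0.10 for TNF against CI, from −0.18 to 0.13 for Dex against CI and from −0.18 to 0.11 for TNF against Dex, and none was called. None of these intervals reached the 0.5 limit.

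Tnfrsf1b was 7.89 and 8.09 in the CI arrays, 8.64, 8.43 and 8.57 in the TNF arrays, and 8.73, 8.78 and 8.58 in Dex. Both CI arrays were below all 6 others, and the TNF and Dex arrays overlapped. Relative to CI it was 1.47-fold higher in TNF (0.56 ± 0.10 (SE), adjusted p = 0.00177 by limma) and 1.63-fold higher in Dex (0.71 ± 0.10, adjusted p = 0.000284), while TNF and Dex differed by −0.15 (95% interval −0.34 to 0.04, adjusted p = 0.258 by limma). A second Tnfrsf1b probe set did not carry these calls. It gave 7.88 and 7.77 in the CI arrays, 7.95, 7.92 and 7.85 in the TNF arrays, and 8.21, 8.08 and 8.02 in Dex, a difference of 0.08 ± 0.08 for TNF and of 0.28 ± 0.08 for Dex against CI (limma, adjusted p = 0.567 and 0.0411 over all probe sets). Its TNF arrays overlapped with CI and its 3 Dex arrays stood above all others. Which part of the transcript each probe set reads was not examined. With the median over both probe sets the differences were 0.32 and 0.49 and neither was called, and without CI replicate 1 the TNF difference was 0.46 and not called.

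Over the 8 arrays the genes with the pattern most like Tnfrsf1b were Psap (Pearson's r = 0.9895), Sun2 (0.9894) and Slc27a1 (0.9878), all lower in both CI arrays than in the other 6. Those most like Tnfrsf1a were Dnaaf4 (0.9687), Calhm4 (0.943) and Kndc1 (0.9268), over a Tnfrsf1a range of only 12.34 to 12.51. The arrays share 3 models and 1 normalisation, so these are descriptions of 8 points.

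Among the adaptors, Tradd, which docks on the death domain of the first receptor, was 9.28 and 9.35 in the CI arrays, 9.34, 9.36 and 9.32 in the TNF arrays, and 9.20, 9.13 and 9.29 in Dex. TNF and CI overlapped and the Dex arrays lay below the TNF arrays, but the difference of 0.13 between TNF and Dex was not called (95% interval −0.01 to 0.28, adjusted p = 0.193 by limma). No comparison was called for either of its other probe sets.

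Traf2, a RING-finger adaptor that brings ubiquitin ligases to both receptors, was 9.15 and 9.32 in the CI arrays, 9.01, 9.01 and 9.12 in the TNF arrays, and 8.70, 8.67 and 8.77 in Dex. The models did not overlap, with CI highest and Dex lowest. It was 1.43-fold lower in Dex than in CI (−0.52 ± 0.08 (SE), adjusted p = 0.000719 by limma). TNF exceeded Dex by 0.33 ± 0.07 (adjusted p = 0.00654 by limma), which is under the 0.5 limit and so was not called, and the difference of −0.19 between TNF and CI had an adjusted p of 0.118. The Dex call sits close to the limit: under quantile normalisation the difference was −0.48, and without CI replicate 2 it was −0.44, and neither was called.

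In the death arm, Fadd, the bridge between death receptors and caspase-8, was 9.35 and 9.42 in the CI arrays, 9.31, 9.19 and 9.19 in the TNF arrays, and 9.35, 9.30 and 9.25 in Dex. Its TNF arrays were below both CI arrays, with a difference of −0.15 (95% interval −0.32 to 0.02), and neither of its probe sets was called in any comparison.

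Casp8, the initiator protease of this arm, was 10.36 and 10.52 in the CI arrays, 10.01, 10.04 and 9.99 in the TNF arrays, and 9.90, 10.01 and 9.74 in Dex. Both CI arrays were above all 6 others, and TNF and Dex overlapped. In Dex it was 1.47-fold lower than in CI (−0.56 ± 0.09 (SE), adjusted p = 0.00105 by limma). In TNF the difference of −0.43 ± 0.09 had an adjusted p of 0.00633 by limma but was under the limit, and TNF and Dex differed by 0.13 (95% interval −0.05 to 0.31). Without CI replicate 2 or Dex replicate 3 the Dex difference was −0.481 and −0.485 and not called, and without CI replicate 1 the TNF difference was −0.51 and called.

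Cflar encodes c-FLIP, a caspase-8 relative without protease activity that restrains Casp8, and it lies beside Casp8 on chromosome 1 in the RefSeq annotation with only a non-coding RNA gene between them. Its main probe set was 8.98 and 8.94 in the CI arrays, 8.55, 8.58 and 9.03 in the TNF arrays, and 9.04, 9.06 and 9.06 in Dex. TNF replicate 3 was apart from the other TNF arrays and close to Dex, and no difference was called (TNF against CI −0.24 ± 0.12, adjusted p = 0.191 by limma). Cflar had 5 probe sets, and 3 of them were lower in TNF than in CI at an adjusted p under 0.05. The one called had 8.50 and 8.64 in the CI arrays, 8.04, 7.89 and 8.18 in the TNF arrays, and 8.63, 8.32 and 8.47 in Dex, with a TNF difference of −0.53 ± 0.11 (adjusted p = 0.00708 over all probe sets, limma). On that probe set the 3 TNF arrays were below all others. The remaining pair with an adjusted p under 0.05 differed by −0.43 and −0.47, and the dimmest probe set by −0.03. With the median over the probe sets of the gene, the TNF difference was −0.52 and called.

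**Figure D3:**
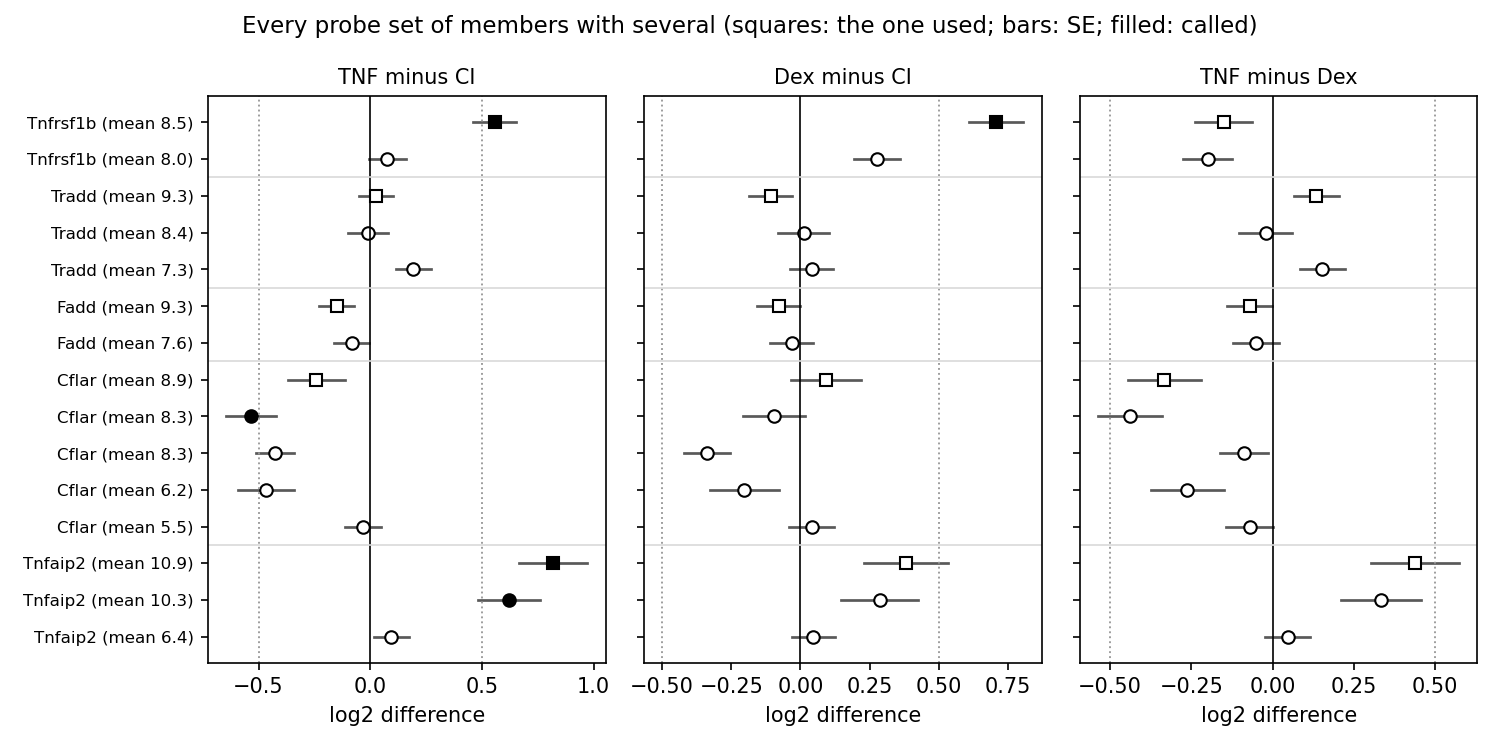
Log2 difference between models (x axis) on every probe set of the 5 genes with more than 1 (y axis, with the mean log2 intensity of the probe set), as point and SE bar. Squares mark the probe set that represents the gene, filled symbols a call over all probe sets, and the lower-intensity probe sets of Tnfrsf1b and Tnfaip2 lie closer to 0 than the squares in TNF minus CI.

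Of the TNF-inducible genes, Tnfaip2, an NF-kB target known for a part in forming membrane protrusions, was 10.35 and 10.46 in the CI arrays, 11.58, 10.92 and 11.16 in the TNF arrays, and 10.84, 10.70 and 10.81 in Dex. The 3 models did not overlap, with TNF highest and CI lowest, and TNF replicate 1 was the highest array. It was 1.77-fold higher in TNF than in CI (0.82 ± 0.15 (SE), adjusted p = 0.00259 by limma), and 0.64 higher, still called, without TNF replicate 1. Dex exceeded CI by 0.38 ± 0.15 (adjusted p = 0.097 by limma) and TNF exceeded Dex by 0.44 ± 0.13 (adjusted p = 0.0378, under the 0.5 limit), and neither was called, although the latter was 0.59 and called without TNF replicate 2. The probe set is of a type that can share probes with other sequences. A second probe set was 9.88 and 9.95 in the CI arrays, 10.86, 10.28 and 10.46 in the TNF arrays, and 10.25, 10.21 and 10.13 in Dex, the same order of models, and was called in TNF against CI at 0.62 ± 0.14 (adjusted p = 0.00975, limma). The other, between 6.33 and 6.55 in every array, was not called.

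Tnfaip6 encodes TSG-6, a secreted hyaluronan-binding protein that is induced by TNF and remodels the matrix in inflammation. Its intensity was 351.6 and 330.3 in the CI arrays, 397, 249 and 289.9 in the TNF arrays, and 54.6, 57.3 and 56.1 in Dex, or 8.46 and 8.37, 8.63, 7.96 and 8.18, and 5.77, 5.84 and 5.81 as log2. The 3 Dex arrays were far below all 5 others, and TNF and CI overlapped. It was 6.09-fold lower in Dex than in CI (−2.61 ± 0.15 (SE), adjusted p = 4.7e-07 by limma) and 5.47-fold higher in TNF than in Dex (2.45 ± 0.13, adjusted p = 2.94e-07), ranks 39 and 34 among the 18193 genes by size of difference. Between TNF and CI it differed by −0.15 (95% interval −0.48 to 0.17, adjusted p = 0.494 by limma). Both calls stood under all 20 alternatives, at −2.65 to −2.31 and 2.16 to 2.60. The Dex intensities were under the median of every array, and how much of them is background was not tested. Tnfaip6 had only 1 probe set.

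Some transcripts used to mark other cell types also differed between the models. Of 9 measured preadipocyte and fibroblast markers, 4 were called lower in Dex than in CI (Col1a1, Col3a1, Cd44 and Dlk1). In TNF, 2 were called higher than in CI and 6 higher than in Dex. These shares, 44.4%, 22.2% and 66.7%, stood beside 9%, 8.22% and 7.3% of all genes. The mean level of the list was 11.10 to 11.12 in the CI arrays, 11.28 to 11.51 in TNF and 10.52 to 10.61 in Dex. Dex was lowest, as for Tnfaip6, and the list median in Dex against CI was −0.422. The 5 markers not called there differed by −0.42 (Thy1), −0.41 (Pdgfrb), −0.13 (Cd34), −0.02 (Pdgfra) and 0.05 (Vim). Of 10 macrophage and leukocyte markers, Cd14 and Lyz2 were called higher in TNF than in CI (20%, beside 8.22% of all genes). Cd14 was also called higher in Dex than in CI (0.98 ± 0.13, adjusted p = 0.000218 by limma), the direction of Tnfrsf1b in both comparisons. Lyz2 went the other way in Dex, at −0.40 ± 0.07 against CI (adjusted p = 0.00157 by limma), under the 0.5 limit. The list median in Dex against CI was 0.055, with 10% called, beside 9% of all genes. In TNF against Dex 1 was called, higher in TNF (10%, beside 7.3% of all genes). The mean log2 level of the list was 6.86 in both CI arrays, 7.12 to 7.15 in TNF and 6.94 to 6.99 in Dex, and its summed intensity 2636 to 2662 in CI, 3844 to 4064 in TNF and 2629 to 2677 in Dex. Such a sum is weighted to the brightest genes of the list, here Lyz2 and Cd14, and the list median in TNF against CI was 0.107. Ptprc, which marks all leukocytes, stayed between 4.46 and 4.77 and Adgre1, a macrophage marker, between 6.60 and 6.93 in all 8 arrays, with overlapping models. Ptprc was dim, with a mean above that of only 5.9% of genes. Csf1r exceeded CI by 0.40 in TNF and Cd68 by 0.31 in Dex (limma, adjusted p = 0.00228 and 0.0413), both under the 0.5 limit. Itgam, Fcgr1, Mrc1 and Aif1 had an adjusted p above 0.05 by limma in both comparisons with CI. Of 6 endothelial markers limma called 0 in each comparison, with 4, 0 and 2 at an unadjusted p under 0.05. The beta-actin 3′ minus 5′ difference, a sign of RNA degradation when large, was 0.66 and 0.54 in CI, 0.74, 0.71 and 0.83 in the TNF arrays, and 0.49, 0.49 and 0.74 in Dex, and the calls of Tnfaip2 and Tnfaip6 stood with it as a covariate. The part of these genes and of the adipocyte markers in the differences of Tnfaip2, Tnfaip6 and Tnfrsf1b was not tested.

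The wider pathway was counted from 5 further lists. Of 7 genes for the ligands and their shedding, 1 was called in each comparison with Dex (14.3%, beside 9% and 7.3% of all genes), Timp3, an inhibitor of the protease that releases TNF and its receptors from the cell surface. Timp3 was 8.89 and 8.82 in the CI arrays, 9.48, 9.18 and 9.23 in the TNF arrays, and 8.07, 7.89 and 7.80 in Dex. The 3 models did not overlap, and Dex was lowest. Timp3 was 1.91-fold lower in Dex than in CI (−0.93 ± 0.10 (SE), adjusted p = 7.46e-05 by limma) and 2.6-fold lower in Dex than in TNF, whereas TNF exceeded CI by 0.44, which was not called. With the median over its probe sets the Dex differences were smaller and still called, at −0.546 against CI and 0.84 for TNF against Dex. Timp3 was lowest in the model where the mean level of the fibroblast marker list was lowest, and the part of those markers was not tested. Tnf itself was not called, at 6.87 to 7.15 over the 8 arrays with overlapping models, and the sheddase gene Adam17 exceeded CI by 0.30 in TNF, also under the limit.

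Of 26 measured genes for the ubiquitin ligases, deubiquitinases and kinases of the receptor complex, 1 rose and 2 fell in TNF against CI, 1 fell in Dex against CI and 1 was lower in TNF than in Dex, with list medians of −0.04, −0.002 and −0.01. The shares called, 11.5%, 3.85% and 3.85%, stood beside 8.22%, 9% and 7.3% of all genes. Tnip1, which binds the NF-kB inhibitor A20, was 11.22 and 11.28 in the CI arrays, 12.19, 11.61 and 11.83 in the TNF arrays, and 11.54, 11.46 and 11.24 in Dex, and was 0.63 ± 0.14 higher in TNF than in CI (adjusted p = 0.00885 by limma). That call was lost without CI replicate 1, CI replicate 2 or TNF replicate 1, at 0.60, 0.66 and 0.48. Tab3, a partner of the kinase TAK1, was 9.02 and 9.08 in the CI arrays, 8.48, 8.27 and 8.54 in the TNF arrays, and 8.94, 8.96 and 9.02 in Dex. The 3 TNF arrays were below all others, and Tab3 fell in TNF by 0.63 against CI and by 0.54 against Dex (limma, adjusted p = 0.000544 and 0.000505), and the latter difference was −0.46 and not called without TNF replicate 2. Tank, a TRAF-binding regulator of NF-kB and interferon signalling, was 11.43 and 11.53 in the CI arrays, 11.09, 10.90 and 10.76 in the TNF arrays, and 10.86, 10.55 and 10.94 in Dex, above all others in CI. Relative to CI it fell by 0.70 in Dex and by 0.56 in TNF (limma, adjusted p = 0.00178 and 0.00717), and the TNF call was lost without CI replicate 2 or TNF replicate 3, at −0.52 and −0.48, under quantile normalisation (−0.48) and with the median over probe sets (−0.498). The feedback genes Tnfaip3 and Birc3 were not called, with TNF differences from CI of 0.30 ± 0.16 and 0.31 ± 0.24.

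Of 12 measured death execution genes, 1 rose and 1 fell in both comparisons with CI and 2 were higher in TNF than in Dex. The list medians were −0.03, −0.10 and 0.03. The share called was 16.7% in each comparison, or 2 genes, beside 8.22%, 9% and 7.3% of all genes. Mlkl, which permeabilises the membrane in necroptosis, was 10.69 and 10.72 in the CI arrays, 10.21, 10.04 and 10.13 in the TNF arrays, and 9.07, 8.98 and 9.12 in Dex. The models did not overlap, in the order CI, TNF, Dex. Mlkl fell by 1.65 ± 0.08 in Dex against CI, a 3.13-fold difference (adjusted p = 1.45e-07 by limma), and by 0.58 in TNF against CI (adjusted p = 0.00044), the latter −0.485 and not called under quantile normalisation. Ripk3, the kinase that activates Mlkl, was 7.49 and 7.47 in the CI arrays, 7.997, 7.914 and 7.916 in the TNF arrays, and 7.10, 6.98 and 7.24 in Dex, and was 1.78-fold higher in TNF than in Dex (0.83 ± 0.08, adjusted p = 1.56e-05 by limma). Its arrays had the order TNF, CI, Dex with no overlap, but the differences from CI, 0.46 and −0.37, were under the limit. Bid, a pro-apoptotic protein that caspase-8 cleaves, was 10.71 and 10.80 in the CI arrays, 11.72, 11.26 and 11.41 in the TNF arrays, and 11.66, 11.61 and 11.41 in Dex. Both CI arrays were below the 6 others, and Bid was higher than in CI by 0.71 ± 0.12 in TNF and by 0.80 ± 0.12 in Dex (limma, adjusted p = 0.00194 and 0.000687).

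Of 23 other receptors of the superfamily, 1 rose in TNF and 2 fell in Dex against CI, and 2 were higher in TNF than in Dex, with list medians of 0.08, 0.03 and 0.03 and shares called of 4.35%, 8.7% and 8.7%, beside 8.22%, 9% and 7.3% of all genes. Fas, a death receptor that recruits Fadd and Casp8, was 8.34 and 8.34 in the CI arrays, 9.87, 8.78 and 9.06 in the TNF arrays, and 8.15, 8.02 and 7.91 in Dex. All TNF arrays were above the others, and TNF replicate 1 was the highest, as for Tnfaip2, Tnfaip6 and Tnip1. Fas was 2.31-fold higher in TNF than in Dex (1.21 ± 0.21 (SE), adjusted p = 0.00161 by limma) and 1.86-fold higher than in CI (0.90 ± 0.23, adjusted p = 0.0175). Without CI replicate 1 or CI replicate 2 the latter stayed at 0.90 with an adjusted p of 0.0851 and 0.1, and it was also not called with the beta-actin covariate (0.98, adjusted p = 0.0508 by limma) or with eBayes trend and robust settings (0.90, adjusted p = 0.0603), and without TNF replicate 1 the differences were 0.89 and 0.58, both called. Tnfrsf22 and Tnfrsf23, which encode decoy receptors for the ligand TRAIL in mice, fell by 0.58 and by 0.565 in Dex against CI (limma, adjusted p = 3e-04 and 0.00223). Eda2r, a receptor for ectodysplasin, was 0.68 higher in TNF than in Dex (adjusted p = 0.0025 by limma), a call lost with the beta-actin covariate (0.55, adjusted p = 0.0677). Of the 4 other measured TNFAIP genes limma called 0 in each comparison, with 1, 1 and 0 at an unadjusted p under 0.05. The 1 was Tnfaip8, a regulator of cell survival, with −0.385 in TNF and −0.48 in Dex against CI (limma, adjusted p = 0.0156 and 0.00456), both under the limit.

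**Figure D4:**
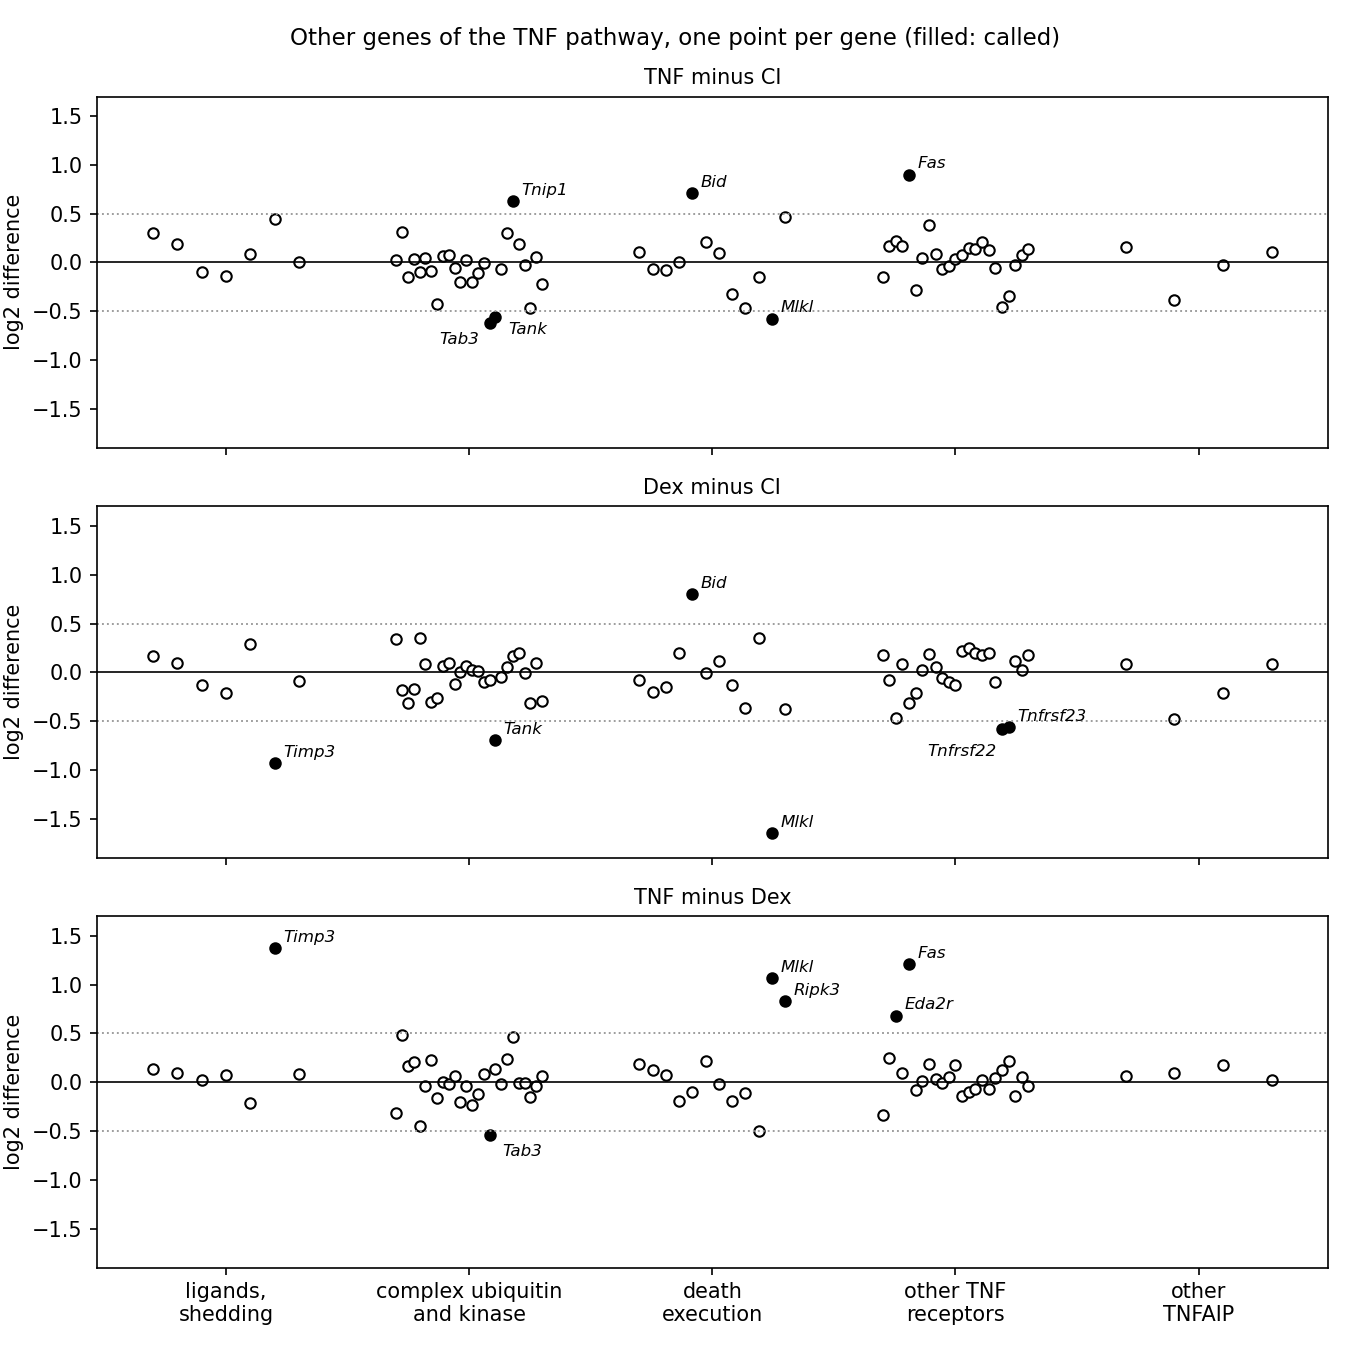
Log2 difference (y axis) in each comparison for the measured genes of the 5 pathway lists (x axis), with 1 point per gene in alphabetical order within its list, filled and named where called, and dotted lines at −0.5 and 0.5. Most genes lie between the dotted lines, and Mlkl in Dex minus CI (−1.65) and Timp3 in TNF minus Dex (1.38) lie furthest from 0.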

How the data were processed

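RNA from 8 3T3-L1 adipocyte samples was labelled as biotin cRNA and hybridised to Affymetrix whole-genome mouse arrays. The intensities deposited by the authors were linear, between 6.14 and 24273.6. The study's methods name affyPLM's RMA for such arrays, and whether the logarithm of those values was then removed is not given in the sources used here. The planned test assumed log2 values, so log2 was taken with no pseudocount. Of 45101 probe sets, 64 controls were left out, and of the rest 34945 had 1 gene symbol in the platform annotation, 932 several and 9160 none. The 3 models were fitted together with limma 3.58.1 in R 4.3.3 (lmFit and eBayes, no block), with 5 residual degrees of freedom. The study's methods name limma's moderated test and these thresholds, and the joint fit was chosen here. On simulated data with 18193 genes, 85% of 100 changes of 0.75 were recovered for TNF minus CI, 87% for Dex minus CI and 91% for TNF minus Dex. Members, lists and alternatives were chosen with earlier results of these data known. The genes named were all members, the 3 genes most like each receptor and up to 4 called genes of each pathway list. The other pathway genes named (Adam17, Tnf, Tnfaip3, Birc3, Tnfaip8) were chosen after their values were seen. The treatment checks were Saa3, Fkbp5, Ccl2 (1.52 higher in TNF than in CI) and Tsc22d3 (2.13 higher in Dex than in CI). Cell type markers came from further lists, of which not every gene is named. Alternatives covered scaling, the probe set rule, low values, pseudocount, thresholds, eBayes settings, array weights, a replicate block, a beta-actin covariate and leaving out each array. Arrays carry no read depth, and precision is limited by how many there were. Figures were drawn with Python 3.11.15.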

Additional observations from a re-analysis of the deposited data

How the results depend on the processing

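The counts over all genes were within 1.5 times under 18 of 20 alternatives in each comparison. With every probe set as a feature (34945 tested) they were 2727 for TNF minus CI, 2978 for Dex minus CI and 2356 for TNF minus Dex, and with the adjusted p alone 4181, 3925 and 3800, against 1496, 1637 and 1328. Leaving out each array gave 1237 to 1605, 1552 to 1795 and 1284 to 1420. The split of TNF minus CI moved with the scaling, from 545 higher and 951 lower to 634 and 726 under quantile normalisation and 443 and 1179 with each array centred on its median. Leaving out a TNF or Dex array, the count of the 9 genes was 2 in TNF minus CI. It was 3 to 4 in Dex minus CI (3 without Dex replicate 3) and 1 to 2 in TNF minus Dex (2 without TNF replicate 2). With the adjusted p alone it was 3 in TNF minus Dex. Without CI replicate 1, TNF minus CI was 0.46 for Tnfrsf1b and −0.51 for Casp8. Without CI replicate 2, Dex minus CI was −0.48 for Casp8 and −0.44 for Traf2, both under the limit. With the median over probe sets, the count of 2 in TNF minus CI held 1 higher (Tnfaip2) and 1 lower (Cflar), and Tnfrsf1b was not called. Over the member genes, 518 of the recomputed values kept direction and side of the threshold, 6 came past it, 7 fell back and 9 turned sign. Those that turned sign were small or came from other probe sets. Dex minus CI was -0.29 for Cflar and 0.011 for Tradd with the median over the probe sets, and 0.01 for Tnfrsf1a under quantile normalisation (-0.074 to 0.026 leaving out an array). Tradd was -0.023 in TNF minus CI with arrays centred, -0.01 with the median over probe sets and -0.013 with the beta-actin covariate (-0.008 to 0.06 leaving out an array), and -0.021 in TNF minus Dex with the median over probe sets. Outside the member genes, Bid in TNF minus Dex also turned sign, at 0.032 with the covariate and -0.223 to 0.006 leaving out an array. The causes were not tested.

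The deviations of same-numbered arrays from their model's mean correlated at -0.095 to 0.334 over 7 pairs. The TNF and Dex arrays numbered 1 and 3 deviated together (0.334 and 0.213), those numbered 2 did not (-0.095), and 3 of these 6 arrays correlated best with their own number. Since not every pair was correlated and no label ties the numbers to a batch, the numbers were not taken as pairs. With the replicate number as a block, 1534, 1730 and 1339 of all genes and 2, 4 and 1 of the 9 were called. With 2 CI arrays, each comparison with CI rests on either of them, and the intensities carry no measure of background, which limits the dimmest values, those of Tnfaip6 in Dex among them.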
